A study of Mus musculus with 12 samples.

Results

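The hypoxia response of AXL KO cells was described from 6 of the 12 libraries of the series: 3 from AXL KO cells held in 1% oxygen (hypoxia) and 3 from AXL KO cells held in 21% oxygen (normoxia), chosen by their titles. The cells of all groups are MMTV-NIC breast cancer cells. In the MMTV-NIC mouse model a mouse mammary tumour virus promoter drives an activated Neu (ErbB2) together with Cre recombinase in mammary epithelium, so every group carries that oncogene. AXL WT cells retain AXL, a TAM family receptor with tyrosine kinase activity, and AXL KO cells are its knockout. The other 6 libraries, 3 of AXL WT cells in 1% oxygen and 3 in 21% oxygen, were used to ask where the response of AXL KO cells differed from that of AXL WT cells. The labels give no duration of hypoxia, no number of knockout clones, no sex or age of the source animals and no origin of the replicates. With no word on separate cultures, the tests see only how far these libraries differ from each other, which may be technical. The genotype field of 6 samples disagrees with their titles, and the Axl counts below go with the titles. RNA was measured by sequencing, as fragments counted per gene.

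Cells sense oxygen through prolyl hydroxylases (the Egln genes), which mark the alpha subunits of hypoxia-inducible factor (HIF) for destruction by the VHL ubiquitin ligase. In low oxygen HIF alpha persists, pairs with ARNT and binds DNA at the core letters ACGTG or GCGTG near genes of glycolysis, blood vessel growth, matrix modification and mitochondrial turnover. Low oxygen also slows costly processes such as protein synthesis, nucleotide synthesis and respiration. AXL binds the ligand GAS6 and signals through the phosphoinositide 3-kinase and ERK pathways, and in tumours it is associated with mesenchymal traits and invasion.

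Gene totals were 55579433, 57574352 and 58775422 counts in the normoxia libraries of AXL KO cells and 47965628, 51189977 and 52581702 in their hypoxia libraries. Axl had 164, 189 and 200 counts in these normoxia libraries and 86, 105 and 78 counts in the hypoxia libraries, which is 1.72 to 3.47 CPM (counts scaled to library size and TMM factors), against 454 to 1000 CPM in the 6 AXL WT libraries. The deleted stretch is not given in the labels, so these reads do not show whether any functional transcript remained. The 6 AXL KO libraries separated by oxygen: the first principal component held 95.9% of their variance, and libraries of the same group differed from one another by more than counting noise. Markers of luminal mammary tumour cells summed to 2270 to 2570 CPM in normoxia and 2400 to 2490 CPM in hypoxia, mostly Krt8, Krt18 and Erbb2, whereas Cdh1 and Epcam stood below 13 CPM in every library and Krt19 was at 0 in normoxia. Leukocyte markers summed to 103 to 129 CPM in normoxia and 93.9 to 97.6 CPM in hypoxia, nearly all from Cd68 and Cd14, with Ptprc, Cd3e and Itgam at or near 0. Endothelial markers summed to 3.45 to 5.01 CPM in normoxia and 16.4 to 18.6 CPM in hypoxia, nearly all from Kdr, with Cdh5 and Tie1 at or near 0. In RNA from whole cultures, fewer cells of a kind and less RNA per cell cannot be told apart.

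Most genes changed. Of 15134 genes tested with edgeR's quasi-likelihood test, 5685 (37.6%) were higher and 6105 (40.3%) were lower in hypoxia at an adjusted p under 0.05, so 77.9% were called in either direction. A call alone therefore says little about a gene, and the size of its change matters more. With edgeR's test against a minimum fold of 2, 1656 genes (10.9%) were higher and 2125 (14.0%) lower, 25.0% in all. Called genes that rose at least 16-fold numbered 160, and 193 fell at least as far. The libraries of the groups did not overlap for 80.6% of genes. TMM factors were 0.982 to 1.01 in normoxia and 0.860 to 0.873 in hypoxia, and with library size alone the median of all genes moved from -0.03 to -0.24 on the log2 scale and the calls split 4434 higher and 7361 lower. Changes below are relative to the TMM scale.

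**Figure D1:**
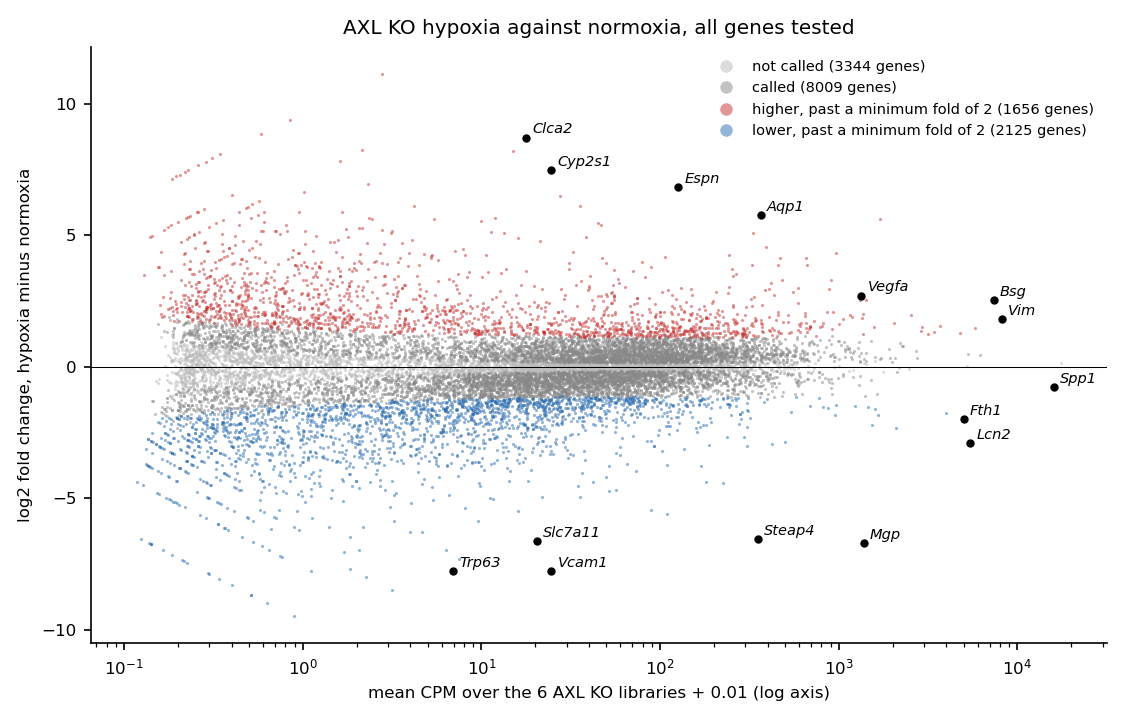
Log2 fold change of AXL KO hypoxia minus normoxia (vertical axis) against mean CPM of the 6 libraries (horizontal log axis), 1 point per gene tested. The 1656 red and 2125 blue points are genes past a minimum fold of 2, on either side of 0.

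The steepest rises and falls were ranked among called protein-coding genes with at least 10 CPM and no overlap between the groups. Over all genes tested, log2 changes ran from -9.49 to 11.1. The rises so ranked were led by genes that AXL KO cells barely transcribed in normoxia. Clca2, which encodes a calcium-activated chloride channel regulator (chromosome 3, 145070263 to 145099443), stood at 0.0357, 0.069 and 0.139 CPM in normoxia and 38.4, 33.5 and 33.9 CPM in hypoxia, a log2 change of 8.71 ± 0.20 (SE; n = 3 and 3, edgeR adjusted p = 6.3e-11), or 9.32 without AXL KO normoxia replicate 3. Tmod2, an actin filament capping protein (chromosome 9, 75565621 to 75611325), rose from 0.0714 to 0.139 CPM to 28.8 to 32.2 CPM (8.21 ± 0.17). For both genes all 3 hypoxia libraries lay far above every normoxia library. Cyp2s1, a cytochrome P450 (chromosome 7, 25802475 to 25816913), rose by 7.47 ± 0.16, from 0.207 to 0.312 CPM up to 45.5 to 55.4 CPM. Espn, an actin-bundling protein of microvilli, went from 1.61, 1.93 and 3.03 CPM to 255, 254 and 244 CPM (6.84 ± 0.17). L1cam, a neural adhesion molecule found on many invasive tumours, went from 0.554, 0.621 and 0.624 CPM to 59.4, 54.4 and 49.1 CPM (6.49 ± 0.12). None of these 5 genes had overlap between the groups, which the ranking required, and 80.6% of all genes had none.

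Another of the largest rises reached a high level. Aqp1, a water channel (chromosome 6, 55336432 to 55348555), was at 14.1, 12.2 and 13 CPM in normoxia and 792, 666 and 695 CPM in hypoxia (5.78 ± 0.10, edgeR adjusted p = 1.4e-11). Mettl7b (6.13 ± 0.12), the copper pump Atp7b (5.65 ± 0.16) and Acap1, a regulator of endosome recycling (5.60 ± 0.17), were also among the largest rises.

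The largest gains in reads were in abundant genes. Bsg, the chaperone of lactate transporters also called CD147, rose from 1659, 2086 and 2704 CPM to 13300, 12050 and 12340 CPM (2.55 ± 0.15, edgeR adjusted p = 4.7e-08). Vim, the intermediate filament of mesenchymal cells, rose from 3078, 3671 and 4124 CPM to 12270, 12790 and 12990 CPM (1.81 ± 0.11). The glycolytic genes Pkm, Aldoa and Gpi1 were also among them. Abundant transcripts moved as well as rare ones.

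The steepest falls, ranked in the same way as the rises, removed transcripts almost entirely. Vcam1, an adhesion receptor induced by inflammation (chromosome 3, 116109949 to 116129688), fell from 40.6, 57.1 and 49 CPM to 0.218, 0.157 and 0.286 CPM (-7.78 ± 0.20, edgeR adjusted p = 1.3e-10). Trp63, the master regulator of basal epithelium (chromosome 16, 25683763 to 25892102), fell from 14.1, 12.7 and 14.8 CPM to 0.0485, 0.0672 and 0.066 CPM (-7.77 ± 0.20). Only 8 counts of Trp63 over the 3 hypoxia libraries were left of 2380 in normoxia. Mgp, an inhibitor of calcification (chromosome 6, 136872435 to 136875823), stood at 2450, 2697 and 3052 CPM in normoxia and fell to 23.9, 27.3 and 27.3 CPM in hypoxia (-6.71 ± 0.12). Steap4, a metalloreductase that reduces iron and copper, fell from 614, 667 and 811 CPM to 6.11, 8.48 and 7.5 CPM (-6.56 ± 0.15). The noradrenaline transporter Slc6a2 (-7.30 ± 0.26), the cystine transporter Slc7a11 (-6.64 ± 0.34), Syt12 (-5.87 ± 0.17), the retinol dehydrogenase Dhrs9 (-5.58 ± 0.19) and the glycerol phosphate dehydrogenase Gpd1 (-5.48 ± 0.11) were also among the largest falls.

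The largest losses in reads were of secreted and iron-binding proteins. Lcn2, lipocalin 2, which sequesters iron-loaded siderophores, fell from 9797, 9781 and 9206 CPM to 1279, 1278 and 1260 CPM (-2.92 ± 0.08, edgeR adjusted p = 1.3e-10). Fth1, the heavy chain of ferritin, fell from 8084, 7946 and 7954 CPM to 2024, 1918 and 2038 CPM, 4.01-fold lower (edgeR adjusted p = 1.1e-09). Cp, the ferroxidase ceruloplasmin, fell from 5561 to 6805 CPM down to 1690 to 1893 CPM (-1.75 ± 0.09), and complement C3 from 3228 to 3913 CPM down to 676 to 707 CPM (-2.35 ± 0.09). Spp1, osteopontin, took the most counts of any gene in normoxia, at 19890, 20400 and 20080 CPM. It still stood at 11800, 11300 and 12250 CPM in hypoxia (-0.77 ± 0.08). In hypoxia Fn1, fibronectin, took the most counts, which are not corrected for transcript length. The level of Fn1 did not pass the test (0.14 ± 0.10, edgeR adjusted p = 0.23) but was called higher without AXL KO normoxia replicate 3 (0.24, adjusted p = 0.0222).

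**Figure D2:**
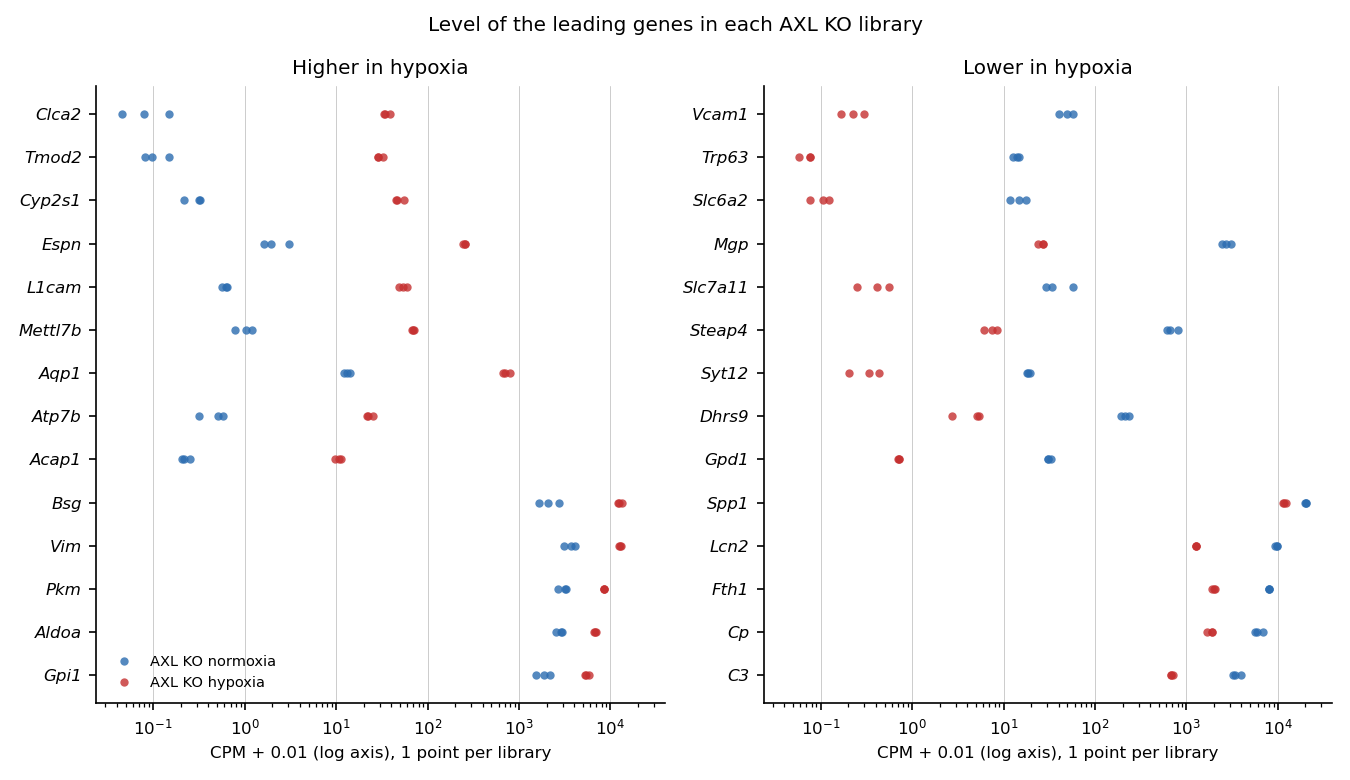
CPM + 0.01 (log axis) in each of the 3 AXL KO normoxia (blue) and 3 AXL KO hypoxia (red) libraries for the named genes among the largest rises and falls in log2 fold change and the largest gains and losses in CPM. The red and blue points do not overlap for any gene shown, which was a condition for entering the largest rises and falls.

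Genes were then read by role, in lists whose results are given as counts of members called beside the background of 37.6% higher and 40.3% lower. In the machinery of oxygen sensing, 7 of 10 tested members were higher and 3 lower, with 2 higher and 1 lower past a minimum fold of 2. The alpha subunit Hif1a rose from 296, 276 and 285 CPM to 525, 494 and 534 CPM (0.86 ± 0.06), and its partner Arnt from 105 to 115 CPM up to 213 to 258 CPM (1.07 ± 0.08). The other alpha subunit, Epas1 (HIF-2 alpha), fell from 52, 65.6 and 81.3 CPM to 34.5, 35.5 and 33.8 CPM (-0.94 ± 0.13), and the neural partner Arnt2 fell from 5.15 to 6.22 CPM down to 0.461 to 0.66 CPM (-3.29 ± 0.18). The 2 alpha subunits thus moved in opposite directions, without overlap between groups for either. Among the hydroxylases, Egln1 rose from 145, 187 and 226 CPM to 991, 1018 and 994 CPM (2.43 ± 0.13), and Egln3 from 419, 600 and 674 CPM to 1136, 1335 and 1311 CPM (1.16 ± 0.15). Egln2, which is not a classical HIF target, changed by 0.14 ± 0.06 (edgeR adjusted p = 0.048), a call lost with library size alone (-0.07, adjusted p = 0.32), with no filter (adjusted p = 0.125), in the fit to all 12 libraries (adjusted p = 0.239), with TMM factors from the 6 libraries (adjusted p = 0.0524) and without any single library except AXL KO hypoxia replicate 1 (adjusted p = 0.0536 to 0.192). The ligase gene Vhl (1.03 ± 0.08) and the HIF inhibitor Cited2 (1.72 ± 0.09) rose, while Hif1an, the asparaginyl hydroxylase that silences HIF, fell by 1.00 ± 0.09 on the log2 scale. Hif3a had 3 counts in normoxia and 1 in hypoxia and was not tested.

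Glycolysis enzymes and glucose transporters rose nearly throughout. Of 21 tested, 19 were higher and 2 lower, 13 were higher past a minimum fold of 2, and the median log2 change was 1.34 against -0.03 for all genes. Pfkfb3, which makes the activator of phosphofructokinase, rose most among the well-read members, from 80.2, 73 and 102 CPM to 1252, 1212 and 1258 CPM (3.87 ± 0.12, edgeR adjusted p = 3.3e-10). The glucose transporter Slc2a1 rose from 199, 211 and 221 CPM to 858, 796 and 826 CPM (1.98 ± 0.07). Hexokinases differed: Hk1 rose from 429 to 534 CPM up to 1512 to 1542 CPM (1.62 ± 0.09), and Hk2, the usual hypoxia-responsive hexokinase, from 72.2 to 75.3 CPM up to 132 to 136 CPM (0.85 ± 0.06). Lactate dehydrogenase subunits moved apart. Ldha rose from 1396, 1780 and 1710 CPM to 3985, 4253 and 4191 CPM (1.35 ± 0.10), and Ldhb fell from 17.4, 21 and 19.1 CPM to 8.75, 9.54 and 8.95 CPM (-1.08 ± 0.10). Pfkfb4 was lower (-0.49 ± 0.12). Gapdh, Pgk1, Eno1 and other members have processed pseudogenes that could share reads with them, and their values carry that uncertainty.

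The HIF core ACGTG was searched on both strands in RefSeq promoter windows (GRCm38.p6, 250 bases before to 50 after each annotated start). Of all 32851 windows 19.6% held it, of the windows of genes tested 25.1%, of those of genes higher past a minimum fold of 2 25.0% and of those of genes lower past it 23.2%. For the 58 genes called higher in the lists of glycolysis, oxygen sensing, mitochondrial adaptation, collagen modification and histone demethylases, 46 matched a promoter by symbol, and 35 of their 65 windows (53.8%) held it. These lists name roles of known HIF targets and were cut to members called higher. That share was thus partly set by the choice of genes and carries no test. The second core, GCGTG, was in 50.1% of windows of genes tested and 56.9% of those 65. A match is only a match of letters, and it overlaps the E-box CACGTG, which other factors bind. The upstream 250 bases of 5 chosen genes that rose are printed 5′ to 3′ on the gene's strand as examples of how ACGTG can sit near the start. Where a gene had several annotated starts, the window with the most ACGTG was printed. All 5 hold it, so they do not show how often it occurs. Ldha holds it 5 times, counting both strands of each CACGTG. Capitals mark ACGTG or its reverse complement, joined where they overlap. Ldha lies on the plus strand at chr7:46845554-46845803, Pfkfb3 on the minus strand at chr2:11502091-11502340, Bnip3 on the minus strand at chr7:138909507-138909756, P4ha1 on the plus strand at chr10:59323046-59323295 and Per1 on the plus strand at chr11:69098699-69098948.
Ldha: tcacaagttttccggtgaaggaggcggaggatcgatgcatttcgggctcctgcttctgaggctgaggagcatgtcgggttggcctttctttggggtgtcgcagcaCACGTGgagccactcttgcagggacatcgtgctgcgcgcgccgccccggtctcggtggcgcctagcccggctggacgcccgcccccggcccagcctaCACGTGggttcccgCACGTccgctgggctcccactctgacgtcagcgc
Pfkfb3: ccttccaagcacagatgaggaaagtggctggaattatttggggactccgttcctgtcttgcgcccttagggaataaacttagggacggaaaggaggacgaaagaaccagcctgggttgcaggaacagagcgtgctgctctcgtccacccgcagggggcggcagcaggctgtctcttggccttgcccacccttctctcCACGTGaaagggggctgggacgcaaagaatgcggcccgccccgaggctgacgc
Bnip3: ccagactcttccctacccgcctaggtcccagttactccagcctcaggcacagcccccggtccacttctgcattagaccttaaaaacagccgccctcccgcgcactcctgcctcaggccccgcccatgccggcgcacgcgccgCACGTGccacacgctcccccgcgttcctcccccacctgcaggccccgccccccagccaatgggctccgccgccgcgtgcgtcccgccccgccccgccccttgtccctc
P4ha1: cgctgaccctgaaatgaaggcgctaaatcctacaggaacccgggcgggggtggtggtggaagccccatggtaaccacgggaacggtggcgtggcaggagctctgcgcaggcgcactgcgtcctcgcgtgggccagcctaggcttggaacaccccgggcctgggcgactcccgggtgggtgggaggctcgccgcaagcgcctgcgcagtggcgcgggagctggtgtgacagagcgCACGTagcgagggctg
Per1: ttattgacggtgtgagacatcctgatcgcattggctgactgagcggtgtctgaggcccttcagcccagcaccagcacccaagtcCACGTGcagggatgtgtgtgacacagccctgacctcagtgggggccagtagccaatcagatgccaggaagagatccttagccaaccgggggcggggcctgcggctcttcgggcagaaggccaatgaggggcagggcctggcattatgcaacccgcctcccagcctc

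Genes that adapt mitochondria to low oxygen rose in 9 of 11 tested, 5 past a minimum fold of 2, and none fell. Bnip3, a receptor for the removal of mitochondria whose promoter is printed above, rose from 188, 244 and 298 CPM to 804, 800 and 792 CPM (1.72 ± 0.13), and its relative Bnip3l by 1.28 ± 0.09. Mxi1, an antagonist of MYC, rose from 93.8, 107 and 126 CPM to 552, 530 and 546 CPM (2.32 ± 0.10). The kinase that closes pyruvate dehydrogenase, Pdk1, rose from 137, 162 and 204 CPM to 330, 320 and 329 CPM (0.96 ± 0.12). With library size alone 7 of the 11 were higher and 2 lower. Pdk4 had no counts, and Ndufa4l2, a common hypoxia marker, had 26 counts in normoxia and 1 in hypoxia.

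Acid-handling genes split. Car12 and Car9, carbonic anhydrases of the cell surface, rose, Car12 from 9.16, 9.07 and 13.2 CPM to 117, 99.2 and 100 CPM (3.33 ± 0.14) and Car9 from 2.29, 2.31 and 2.6 CPM to 12.4, 9.36 and 10.8 CPM (2.18 ± 0.13). The lactate transporter Slc16a1 fell from 113, 110 and 96.4 CPM to 40, 42.7 and 44.1 CPM (-1.33 ± 0.08), and its hypoxia-induced relative Slc16a3 had 1 count in normoxia and 5 in hypoxia. Slc16a3 was not tested. In all, 3 of 7 tested members were higher and 2 lower. Glycogen genes rose in 9 of 11 tested, 6 past a minimum fold of 2, with 1 lower. They included both glycogen phosphorylases Pygl (10.6, 14.7 and 20.3 CPM to 92.3, 101 and 94.8 CPM, 2.65 ± 0.18) and Pygm (2.99 ± 0.22, under 8 CPM), the branching enzyme Gbe1 (1.54 ± 0.16) and the primer protein Gyg (1.15 ± 0.06), and the synthase Gys1 rose less (0.42 ± 0.12, not called with library size alone, adjusted p = 0.127, or in the fit to all 12 libraries, adjusted p = 0.151).

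Factors that act on blood vessels were higher in 9 and lower in 5 of 16 tested, and 8 of the 9 passed a minimum fold of 2. Vegfa, the principal angiogenic ligand, rose from 354, 351 and 365 CPM to 2587, 2186 and 2204 CPM (2.71 ± 0.09, edgeR adjusted p = 4e-10). Adm, the vasodilator adrenomedullin, rose from 22.7, 33.5 and 39 CPM to 822, 702 and 730 CPM (4.57 ± 0.18), and Pgf, placental growth factor, from 8.88 to 12.8 CPM up to 123 to 137 CPM (3.63 ± 0.12). Edn1, endothelin 1, was nearly unread in normoxia (0.0714 to 0.173 CPM) and reached 7.34 to 8.85 CPM (6.12 ± 0.23). Others fell: the vessel-stabilising ligand Angpt1 went from 95.7, 103 and 120 CPM to 15, 16.2 and 17.9 CPM (-2.70 ± 0.10), the co-receptor Nrp1 fell by 0.98 ± 0.09 and Vegfb by 0.45 ± 0.06 on the log2 scale. Angptl4, a hypoxia gene in many cells, was under 1 CPM and lower (-1.66 ± 0.37).

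Enzymes that modify collagen rose in 11 of 13 tested, 8 past a minimum fold of 2. Plod2, a lysyl hydroxylase, rose from 71, 87 and 118 CPM to 1847, 1788 and 1879 CPM (4.32 ± 0.17). The prolyl hydroxylases P4ha2 (124, 127 and 157 CPM to 1010, 928 and 974 CPM, 2.83 ± 0.10) and P4ha1 (479, 469 and 555 CPM to 1921, 1799 and 1922 CPM, 1.91 ± 0.08) rose with their shared subunit P4hb (1.30 ± 0.08), and the crosslinking enzyme Lox rose from 335, 370 and 478 CPM to 1139, 1302 and 1287 CPM (1.66 ± 0.12). Loxl3 was lower (-0.98 ± 0.10) and P3h1 was not called (-0.01 ± 0.06), though it was called lower with library size alone (-0.22, adjusted p = 0.0106). The collagens themselves moved less: 11 of 20 were higher, 4 lower and 5 not called, with 5 past a minimum fold of 2. Col12a1 rose from 3.45 to 5.08 CPM up to 55.1 to 59.1 CPM (3.74 ± 0.12), whereas the abundant chains Col4a5 (699 to 870 CPM in normoxia and 681 to 688 CPM in hypoxia) and Col5a1 (486 to 572 CPM and 572 to 595 CPM) were not called. With library size alone 9 collagens were higher and 7 lower, Col4a5 among the lower (-0.36, adjusted p = 0.00118), and without AXL KO normoxia replicate 3 Col5a1 was called higher (0.17, adjusted p = 0.0439).

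Histone demethylases, which also use oxygen, were higher in 12 of 15 tested and lower in 2. The strongest were Jmjd6 (50, 56.2 and 54 CPM to 498, 395 and 413 CPM, 3.03 ± 0.10), Kdm3a (92.9, 89.7 and 96.5 CPM to 651, 516 and 571 CPM, 2.64 ± 0.09) and Kdm7a (2.12 ± 0.16), and 5 members passed a minimum fold of 2. Most others moved by less than a factor of 2, and Kdm4a fell by 0.90 ± 0.07. Clock genes were higher in 13 of 16 tested, 8 past a minimum fold of 2, and lower in 1. The repressors Per1 (126, 126 and 147 CPM to 1185, 948 and 1016 CPM, 2.98 ± 0.10), Bhlhe40 (234, 247 and 271 CPM to 1081, 1031 and 1020 CPM, 2.06 ± 0.08), Ciart (3.11 ± 0.20), Nr1d1 (1.85 ± 0.08) and Cry2 (1.90 ± 0.10) rose, and the activator Arntl was not called (0.14 ± 0.10), except without AXL KO normoxia replicate 1 (0.23, adjusted p = 0.0448). The labels give no clock time of harvest. Inhibitors of the growth kinase mTORC1 were split 4 and 4: Sesn1 (18, 20 and 24.2 CPM to 133, 116 and 132 CPM, 2.61 ± 0.11) and Ddit4 (328, 359 and 324 CPM to 1046, 1185 and 1120 CPM, 1.73 ± 0.08) rose, and Deptor fell from 236 to 316 CPM down to 52.2 to 52.9 CPM (-2.33 ± 0.11).

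**Figure D3:**
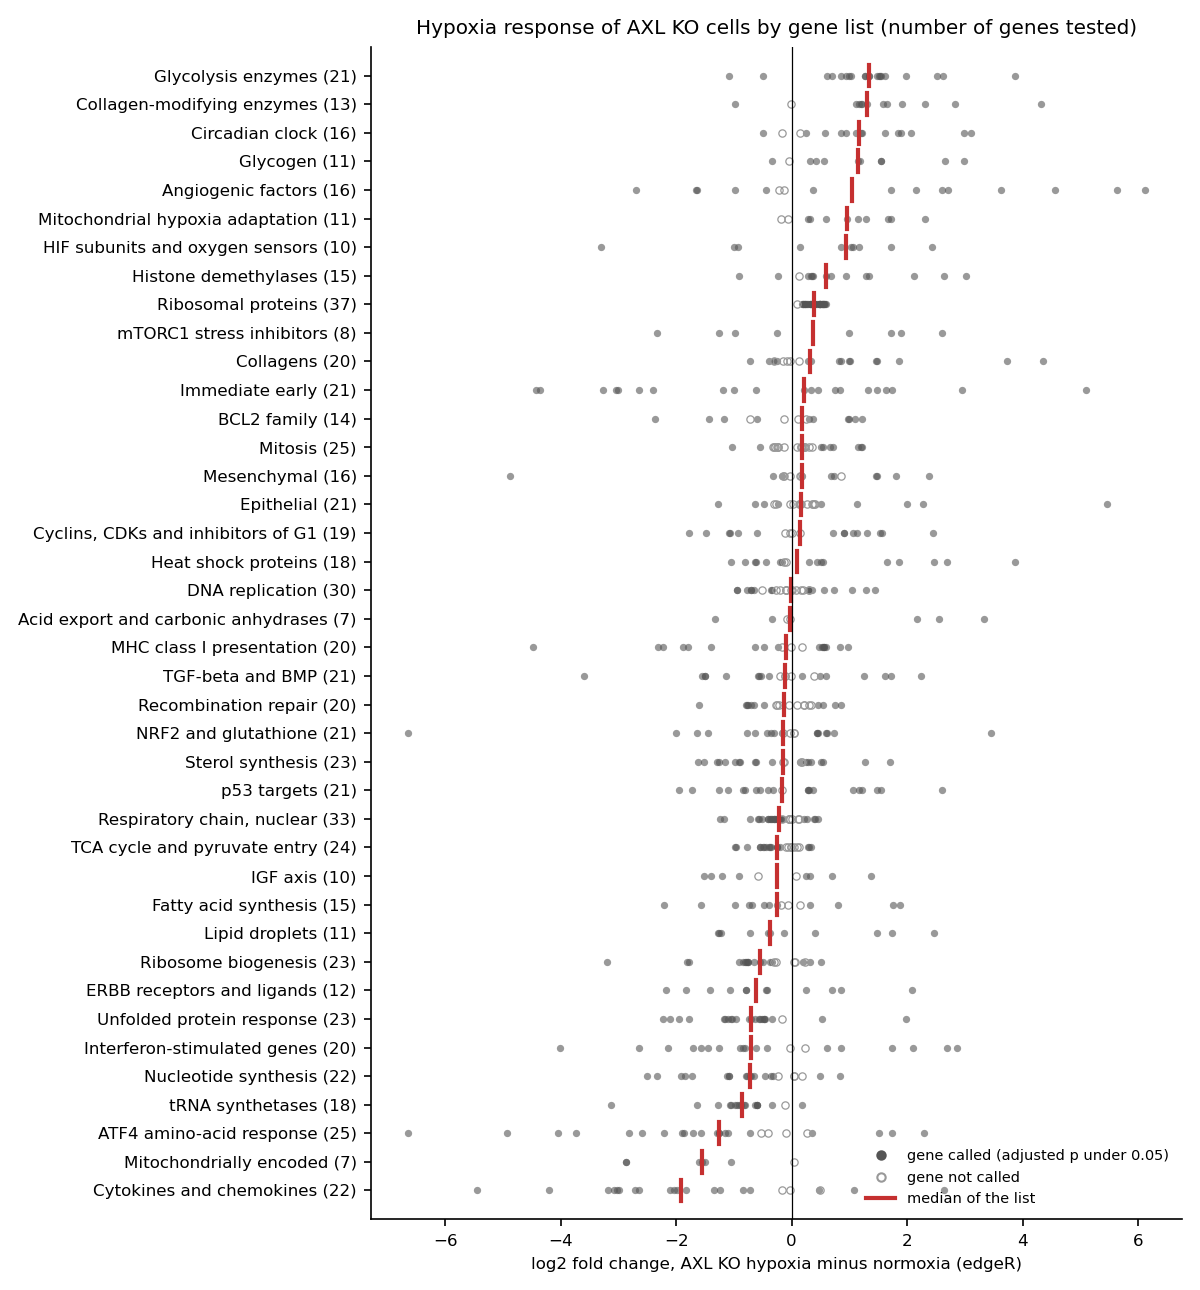
Log2 fold change of AXL KO hypoxia minus normoxia (horizontal axis) for every tested member of 40 gene lists with at least 7 genes tested (rows, sorted by median), filled where called and open where not. The red bars mark medians, which run from 1.34 for glycolysis enzymes to -1.91 for cytokines and chemokines.

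Cell cycle genes did not move as a block in AXL KO cells. Of 30 DNA replication genes tested, 9 were higher, 8 lower and 13 not called, the median was -0.01 and 1 passed a minimum fold of 2. Of 25 mitosis genes, 7 were higher, 2 lower and 16 not called, with a median of 0.17 that became -0.03 with library size alone. Both shares lie below the background. Top2a, the topoisomerase of dividing cells, stood at 87.2, 122 and 99.7 CPM in normoxia and 116, 175 and 149 CPM in hypoxia (0.51 ± 0.15, edgeR adjusted p = 0.0095), with overlap between the groups, and was not called when hypoxia replicate 2 of AXL KO was left out (adjusted p = 0.0543), with library size alone (adjusted p = 0.105) or in the fit to all 12 libraries (adjusted p = 0.0652). Mcm6, a subunit of the replicative helicase, stood at 32.8, 54.9 and 41.5 CPM and 42.6, 47.9 and 46 CPM (0.08 ± 0.15, edgeR adjusted p = 0.64), and cyclin Ccnb1 at 15.9 to 23 CPM and 14.2 to 24.8 CPM (0.09 ± 0.19). The polymerase subunit Pold1 (1.45 ± 0.10), Prc1 of the spindle midzone (1.22 ± 0.12) and Aurkb (1.21 ± 0.13) were higher and Kif20a lower (-1.03 ± 0.24, not called with no filter on low counts, adjusted p = 0.0966). As medians of log2(CPM + 1) over the list, mitosis genes stood at 4.32, 4.84 and 4.44 in normoxia and 4.08, 4.79 and 4.62 in hypoxia. Among 20 recombination repair genes, 4 were higher, 7 lower and 9 not called, and Brca2 fell most (-1.60 ± 0.19, under 11 CPM).

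Of 19 regulators of the G1 phase tested, 9 were higher, 6 lower and 4 not called, a share called close to the 77.9% of all genes. Cyclin D1, Ccnd1, fell from 918, 1134 and 984 CPM to 344, 374 and 371 CPM (-1.48 ± 0.09), its kinases Cdk6 (164, 165 and 160 CPM to 45.3, 50.8 and 46.6 CPM, -1.77 ± 0.07) and Cdk4 (-1.08 ± 0.08) fell too, and the inhibitors Cdkn1a (1.06 ± 0.07), Cdkn1b (0.90 ± 0.07) and Cdkn2d (1.56 ± 0.09) and the brake Rb1 (1.54 ± 0.08) rose. Cyclins E moved the other way, Ccne2 from 2.07 to 2.7 CPM up to 11.7 to 13.7 CPM (2.44 ± 0.13) and Ccne1 by 1.31 ± 0.10.

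Supply lines of growth fell. Nucleotide synthesis genes were lower in 16 of 22 tested and higher in 2, with a median of -0.72. Rrm2, the ribonucleotide reductase subunit of dividing cells, fell from 23.5, 34.6 and 26.4 CPM to 3.44, 5.87 and 5.57 CPM (-2.50 ± 0.20), Umps of pyrimidine synthesis from 19.4 to 24.9 CPM down to 3.98 to 4.54 CPM (-2.33 ± 0.12) and thymidylate synthase Tyms by 1.92 ± 0.18 on the log2 scale. Paics of purine synthesis was an exception and rose (0.84 ± 0.06). Ribosome biogenesis genes were lower in 15 of 23 tested and higher in 3, with a median of -0.55. Myc, the transcription factor that drives them in many cells, fell from 75.4, 63.5 and 63.5 CPM to 5.62, 8.37 and 7.92 CPM (-3.20 ± 0.13, edgeR adjusted p = 3.1e-09), Nop58 by 1.81 ± 0.14 and Nop16 by 1.77 ± 0.13. The ribosomal proteins went the other way by a small amount: 36 of 37 tested were higher and none lower, none passed a minimum fold of 2, the median was 0.39 and the largest change 0.60 (Rpl7). With library size alone 24 were higher and the median was 0.18. Ribosomal protein genes have many pseudogenes, so reads may be split among copies.

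Mitochondrially encoded transcripts fell in 6 of 7 tested, 5 past a minimum fold of 2, with a median of -1.55. Subunit 2 of complex I, mt-Nd2, fell from 853, 937 and 868 CPM to 111, 120 and 132 CPM (-2.88 ± 0.08, edgeR adjusted p = 2.3e-10). Cytochrome b, mt-Cytb, fell from 2303, 2509 and 2428 CPM to 724, 809 and 858 CPM (-1.60 ± 0.08), and mt-Nd6, from the light strand, from 39.9 to 49.2 CPM down to 4.51 to 7.28 CPM (-2.87 ± 0.15). Cytochrome oxidase subunit 1, mt-Co1, was the exception at 4914, 5084 and 5445 CPM and 5248, 5420 and 5294 CPM (0.05 ± 0.08, edgeR adjusted p = 0.57). A further 6 mitochondrial genes had 16 or fewer counts in each group and were not tested. Together, mitochondrial coding genes took 1.20 to 1.28% of counts in normoxia and 0.644 to 0.685% in hypoxia. Why those 6 genes had so few counts was not tested, and these shares describe counted reads only. The respiratory chain subunits encoded in the nucleus moved less: 20 of 33 were lower and 5 higher, 2 past a minimum fold of 2, with a median of -0.21. Ndufa4 fell from 56.4, 64 and 54.1 CPM to 22.5, 27.1 and 27.3 CPM (-1.18 ± 0.09), cytochrome c Cycs by 1.23 ± 0.12 and Atp5b by 0.58 ± 0.08. In the tricarboxylic acid cycle 14 of 24 were lower and 3 higher, none past a minimum fold of 2, led by Suclg2 (-0.99 ± 0.09) and Idh3g (-0.97 ± 0.07).

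Lipid genes were mixed. Sterol synthesis genes were higher in 8 and lower in 11 of 23. Mevalonate-pathway genes Hmgcs1 (172, 224 and 230 CPM to 75.8, 90.3 and 89.1 CPM, -1.29 ± 0.11), Mvk (-1.51 ± 0.13), Idi1 (-1.62 ± 0.15) and Cyp51 (-1.25 ± 0.08) fell, and Insig2, which retains the sterol sensor in the endoplasmic reticulum, rose from 111, 121 and 143 CPM to 410, 396 and 413 CPM (1.70 ± 0.09). In fatty acid synthesis 8 of 15 were lower and 4 higher. Elovl6 (301, 298 and 289 CPM to 57.2, 68.8 and 66.7 CPM, -2.20 ± 0.08) and Acaca (-1.58 ± 0.07) fell, and Acss2, which uses acetate, rose from 54.8, 67.6 and 82 CPM to 235, 258 and 254 CPM (1.87 ± 0.12). Among lipid droplet genes 4 of 11 were higher and 7 lower, with 3 higher and 1 lower past a minimum fold of 2. The lipase inhibitor Hilpda rose from 6.67 to 7.33 CPM up to 38.4 to 39.5 CPM (2.47 ± 0.08), and the coat protein Plin2, a HIF target in other cells, was lower (-0.72 ± 0.07).

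Protein folding genes of the endoplasmic reticulum fell. Of 23 unfolded protein response genes tested, 20 were lower and 2 higher, 4 lower past a minimum fold of 2, with a median of -0.70. Xbp1, whose spliced form drives chaperone transcription, fell from 278, 260 and 250 CPM to 61.9, 59.5 and 61.5 CPM (-2.11 ± 0.07, edgeR adjusted p = 3.6e-10). The chaperone Hspa5 (BiP) fell from 3717, 1874 and 1985 CPM to 516, 546 and 562 CPM (-2.22 ± 0.22). Replicate 1 of AXL KO normoxia stood apart in this group, above the other two for Hspa5, Hyou1 (576 against 363 and 357 CPM), Manf (231 against 166 and 148 CPM) and Ddit3 (227 against 146 and 140 CPM). Without that library the unfolded protein response list was still 20 lower and 2 higher, with a median of -0.59, and Hspa5 changed by -1.83 on the log2 scale. Ero1l, the oxidase of the folding machinery and a HIF target, went the other way, from 1016, 885 and 1189 CPM to 4512, 3814 and 3879 CPM (1.98 ± 0.11).

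Genes of amino acid supply fell further. Of 25 ATF4 target genes tested, 17 were lower and 4 higher, and 14 of the 17 passed a minimum fold of 2, against 14.0% of all genes. Their median was -1.26. The cystine transporter Slc7a11 fell from 57.8, 34.3 and 29.3 CPM to 0.242, 0.403 and 0.55 CPM, asparagine synthetase Asns from 237, 213 and 156 CPM to 13.4, 16.2 and 15.8 CPM (-3.74 ± 0.15), the glutathione-degrading Chac1 from 55.7 to 85.3 CPM down to 2.01 to 2.44 CPM (-4.94 ± 0.17) and the proline enzyme Pycr1 from 64 to 77.6 CPM down to 3.87 to 4.7 CPM (-4.04 ± 0.11). Atf4 itself fell from 484, 428 and 368 CPM to 222, 186 and 187 CPM (-1.11 ± 0.10) and Ddit3 (CHOP) by 1.86 ± 0.16 on the log2 scale. Stc2 (2.29 ± 0.09), Vldlr (1.73 ± 0.09) and the glutamine transporter Slc38a2 (1.51 ± 0.09) rose. The transfer RNA synthetases were lower in 16 of 18 tested and higher in 1, with a median of -0.85, and Wars fell most, from 316, 238 and 183 CPM to 27.1, 28.7 and 28.8 CPM (-3.12 ± 0.17).

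Heat shock genes divided by member, 9 higher and 7 lower of 18 tested, with 5 higher and 0 lower past a minimum fold of 2. Hsph1 rose from 65.7, 56.7 and 52.7 CPM to 991, 729 and 830 CPM (3.87 ± 0.13), Hspa1b (2.69 ± 0.09, a near-copy of Hspa1a, so reads may be split) and Hspb1 (1.86 ± 0.08) rose, and the mitochondrial chaperones Hspa9 (-0.80 ± 0.09) and Hspd1 (-0.44 ± 0.07, not called in the fit to all 12 libraries, adjusted p = 0.0708) and the factor Hsf1 (-1.06 ± 0.08) were lower. Among genes of oxidant defence, 7 of 21 were higher and 10 lower. The cystine importer Slc7a11, which also counts here, fell, and Gclc, the catalytic subunit of glutathione synthesis, rose from 43, 42.9 and 43 CPM to 524, 421 and 464 CPM (3.45 ± 0.09). Mitochondrial Sod2 fell (-1.63 ± 0.08) and the haem oxygenase Hmox1 rose (0.73 ± 0.09). The p53 targets were split 10 and 10 of 21, with Trp53 lower (-0.81 ± 0.09) and Mdm2 (1.48 ± 0.09) and Perp (1.55 ± 0.09) higher. In the BCL2 family 6 of 14 were higher and 4 lower, with 0 higher and 3 lower past a minimum fold of 2. The survival gene Bcl2 fell from 22.1, 19.1 and 21.2 CPM to 3.13, 4.66 and 4.31 CPM (-2.36 ± 0.13), and its relative Bcl2l1 rose from 296, 321 and 325 CPM to 601, 625 and 619 CPM (0.97 ± 0.06). The death-promoting Bcl2l11 rose (1.09 ± 0.07) while Bid (-1.43 ± 0.09) and Bad (-1.17 ± 0.09) fell.

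Secreted signals of inflammation fell. Of 22 cytokine and chemokine genes tested, 16 were lower and 3 higher, 14 lower past a minimum fold of 2, with a median of -1.91, and 8 more were too low to test. The neutrophil attractants Cxcl5 (150, 220 and 151 CPM to 3.61, 3.78 and 4.51 CPM, -5.45 ± 0.18) and Cxcl1 (90.3, 115 and 77.9 CPM to 4.73, 5.53 and 5.15 CPM, -4.20 ± 0.15) fell most among well-read members. The alarmin Il33 fell from 433, 572 and 628 CPM to 55, 76.1 and 68.7 CPM (-3.03 ± 0.15), the interleukin 1 antagonist Il1rn by 2.98 ± 0.15 and the macrophage growth factor Csf1 by 1.23 ± 0.11. Mif, a HIF target, rose from 251, 303 and 300 CPM to 594, 608 and 610 CPM (1.09 ± 0.08). Ptprc, the pan-leukocyte marker, had 2 counts in normoxia and 0 in hypoxia. Interferon-stimulated genes were lower in 12 of 20 tested and higher in 6, with the RNA sensor Ifih1 falling from 12.7 to 13.8 CPM down to 1.77 to 2.37 CPM (-2.65 ± 0.12) and Isg20 rising from 31.1 to 35.8 CPM up to 136 to 150 CPM (2.10 ± 0.07). In antigen presentation on MHC class I, 8 of 20 were higher and 9 lower, with 0 higher and 6 lower past a minimum fold of 2. The heavy chains H2-D1 (0.56 ± 0.07) and H2-K1 (0.47 ± 0.08), which share sequence with other H2 genes, were higher, and the peptide-handling genes Erap1 (-1.88 ± 0.09), Psmb10 (-2.31 ± 0.14) and Tap1 (-1.40 ± 0.13) were lower.

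Receptor signalling genes showed a divided pattern. Among 21 immediate early genes and feedback inhibitors of ERK, 11 were higher and 10 lower, and every one was called. Egr1 fell from 396, 417 and 475 CPM to 18.7, 21.7 and 19.7 CPM (-4.42 ± 0.09, edgeR adjusted p = 3.5e-11), Dusp6 from 170, 164 and 160 CPM to 19, 22.6 and 19.8 CPM (-3.00 ± 0.08), Spry4 from 14 to 19.4 CPM down to 1.25 to 1.96 CPM (-3.27 ± 0.18) and Dusp5 by 2.64 ± 0.09. Other members went the opposite way. Dusp1, a phosphatase of stress kinases, rose from 16.9, 18.4 and 20.8 CPM to 674, 601 and 647 CPM (5.10 ± 0.10), and Ier3 (2.95 ± 0.07), Jun (1.63 ± 0.09) and Fos (1.33 ± 0.10) rose. Some ERBB ligands were lower: Areg (46.7, 45.5 and 36.2 CPM to 9.14, 9.96 and 9.39 CPM, -2.17 ± 0.11), Hbegf (114, 107 and 100 CPM to 27.9, 31.4 and 31.3 CPM, -1.82 ± 0.08), Btc (-1.42 ± 0.16) and Tgfa (-0.80 ± 0.08, not called in the fit to all 12 libraries, adjusted p = 0.0792) fell. Of the 12 tested ERBB receptors and ligands 8 were lower and 4 higher. Past a minimum fold of 2, 3 were lower and 1 higher, and the largest rise was 2.08 on the log2 scale. The receptor Erbb2, the oncogene of the model, stood at 526, 500 and 650 CPM and 692, 693 and 607 CPM (0.25 ± 0.10, edgeR adjusted p = 0.037), a call lost in the fit to all 12 libraries (adjusted p = 0.788), with library size alone (adjusted p = 0.665) and without any 1 of 4 libraries (adjusted p = 0.0925 and 0.154 without AXL KO normoxia replicate 1 or 2, 0.104 and 0.109 without AXL KO hypoxia replicate 1 or 2). The sources used here do not say whether reads of the transgene count towards Erbb2.

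With Axl removed, the rest of the TAM family remained readable. Its ligands fell, Gas6 from 106, 113 and 142 CPM to 34.9, 35.4 and 34 CPM (-1.79 ± 0.10) and Pros1 from 39.8, 43.6 and 48.1 CPM to 13.4, 15.9 and 15.5 CPM (-1.55 ± 0.09). The receptor Tyro3 was lower (15, 15.1 and 14.2 CPM to 8.82, 9.67 and 10.4 CPM, -0.61 ± 0.09), and Mertk was not called (55.1 to 66.7 CPM and 59.8 to 69.2 CPM), except without AXL KO normoxia replicate 3 (0.21, adjusted p = 0.0328). The residual Axl reads were lower as well (-0.65 ± 0.16, edgeR adjusted p = 0.0027). In the insulin-like growth factor axis 4 of 10 were higher and 4 lower, with 0 higher and 2 lower past a minimum fold of 2. Igfbp4 fell from 2001, 2344 and 2113 CPM to 702, 789 and 756 CPM (-1.52 ± 0.08), and the adaptors Irs1 (-1.21 ± 0.12) and Irs2 (-1.40 ± 0.13) fell. Among TGF-beta and BMP genes 7 of 21 were higher and 9 lower: the receptors Tgfbr1 (-1.55 ± 0.09) and Tgfbr2 (358, 392 and 423 CPM to 120, 155 and 142 CPM, -1.49 ± 0.10) fell, and Id1 (38.2, 44.6 and 42.9 CPM to 190, 197 and 210 CPM, 2.25 ± 0.08), Id2 (1.73 ± 0.11) and Tgfb2 (1.62 ± 0.09) rose.

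Neither a mesenchymal nor an epithelial list moved one way. Mesenchymal genes were higher in 7, lower in 3 and not called in 6 of 16 tested, and with library size alone they were 6 and 5. Vim, Zeb1 (98.3, 90.1 and 98.8 CPM to 280, 255 and 263 CPM, 1.47 ± 0.07) and S100a4 (1.46 ± 0.13) rose and Prrx1 fell from 13.2, 13.7 and 11.1 CPM to 0.436, 0.537 and 0.308 CPM (-4.88 ± 0.18), while Fn1, Cdh2 (-0.15 ± 0.10), Snai1 (0.17 ± 0.08) and Snai2 (-0.02 ± 0.11) were not called. With library size alone Cdh2 was called lower (-0.36, adjusted p = 0.00433), and with RLE factors Snai1 was called higher (0.19, adjusted p = 0.0459). Epithelial genes were higher in 5, lower in 4 and not called in 12 of 21, with 3 higher and 0 lower past a minimum fold of 2. Desmoplakin Dsp (7.05, 6.02 and 7.78 CPM to 42.6, 29 and 30.1 CPM, 2.28 ± 0.15) and Cldn4 (2.00 ± 0.19) were higher, and Krt18 (0.02 ± 0.07) and Cdh1 (-0.31 ± 0.18) were not called. With library size alone Krt18 (-0.18, adjusted p = 0.021) and Cdh1 (-0.52, adjusted p = 0.0185) were called lower. Fibroblast markers fell: the list summed to 167 to 181 CPM in normoxia and 19.4 to 23.1 CPM in hypoxia, from Pdgfrb (116, 122 and 128 CPM to 8.17, 9.74 and 9.9 CPM, -3.71 ± 0.09), Pdgfra (-2.03 ± 0.10) and Dcn (-1.91 ± 0.13), all lower, with Lum, Dpt and Fap at or near 0. Their part in the falls of Vcam1, Prrx1, Mgp and the cytokines was not tested.

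The response of AXL KO cells was then set against that of AXL WT cells. The lines may differ in more than AXL, and with no number of clones given the effect of the knockout and other differences between the lines cannot be told apart. Both responses here come from a fit to all 12 libraries, in which 27.3% of 16767 genes were higher and 30.6% lower in AXL KO cells, and 29.2% higher and 30.7% lower in AXL WT cells. The difference of the responses, AXL KO minus AXL WT, was called for 4831 genes (28.8%), 2264 positive (13.5%) and 2567 negative (15.3%). The larger side depended on the method: library size alone gave 2650 positive and 2162 negative, limma-voom 2755 and 2472, and the stricter filter 2117 and 2040. The AXL WT hypoxia libraries spread far more than the rest (biological coefficient of variation 0.400, against 0.0585 to 0.0895 in the other groups), and without AXL WT hypoxia replicate 1 the count was 8413. The comparisons that follow rest on that spread-out group.

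**Figure D4:**
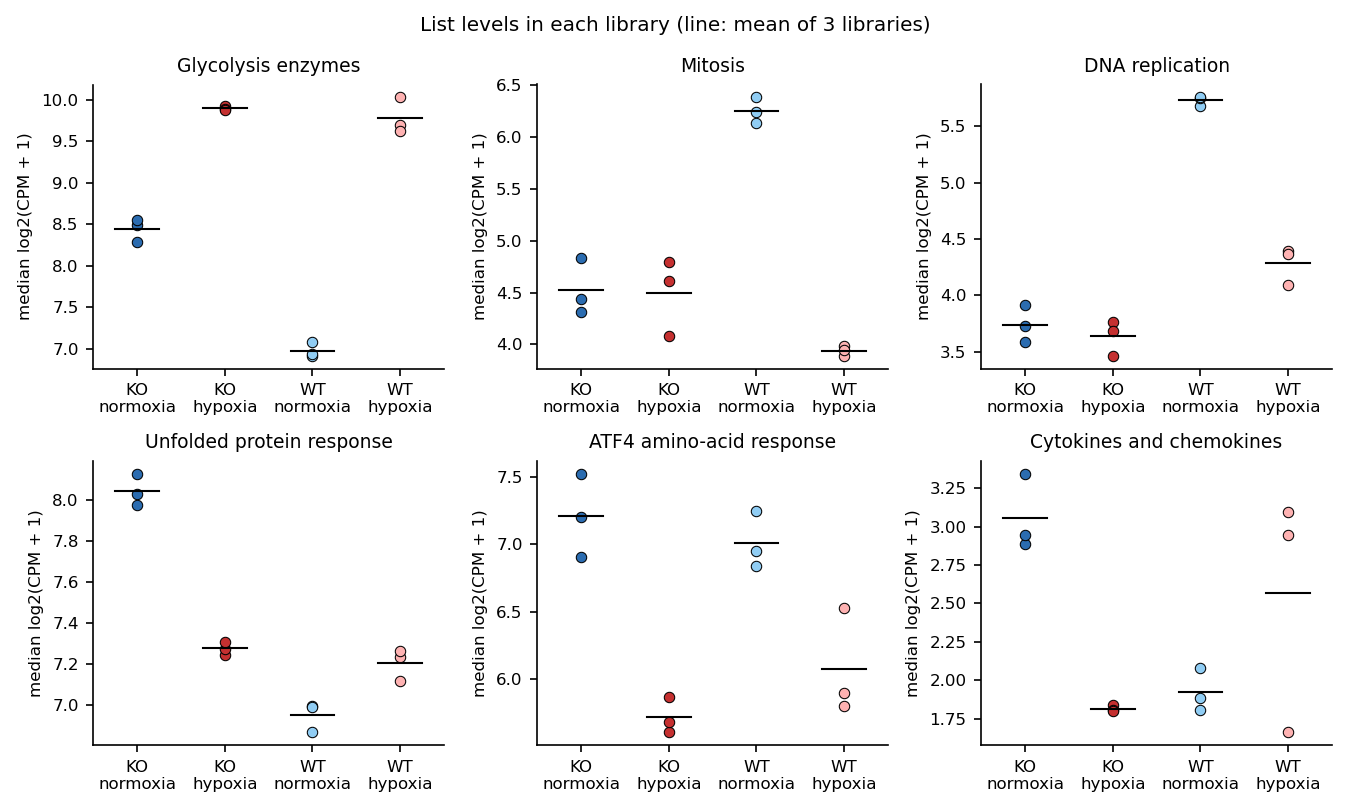
Median log2(CPM + 1) over the tested members of 6 gene lists (vertical axes, each with its own range) in each of the 12 libraries, grouped by genotype and oxygen, with bars at the mean of 3 libraries. Mitosis and DNA replication genes are low in both AXL KO groups and fall from AXL WT normoxia to hypoxia, and the levels of the unfolded protein response list are highest in AXL KO normoxia.

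Cell cycle genes differed between the genotypes. All 25 mitosis genes were lower in AXL WT hypoxia, with a median of -2.23 against 0.17 in AXL KO cells, and the difference was called for 24 of 25, all positive. For DNA replication the medians were -1.86 and -0.01, with 28 of 30 called and all positive, and for recombination repair -2.20 and -0.13, with 15 of 20 called. As medians of log2(CPM + 1), mitosis genes stood at 6.14 to 6.38 in AXL WT normoxia and 3.89 to 3.98 in AXL WT hypoxia, and at 4.32 to 4.84 and 4.08 to 4.79 in the AXL KO groups. For mitosis both AXL KO groups thus lay below AXL WT normoxia and above AXL WT hypoxia. DNA replication genes stood at 3.47 to 3.91 over the AXL KO libraries, below AXL WT hypoxia (4.09 to 4.40) as well as AXL WT normoxia (5.68 to 5.76). Top2a had a difference of 3.28 on the log2 scale (edgeR adjusted p = 3.4e-05) and Ccnb1 of 3.00 (edgeR adjusted p = 0.00023).

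Protein folding genes differed in the other direction. The unfolded protein response list had medians of -0.70 in AXL KO and 0.31 in AXL WT cells, and 19 of 23 differences were called, all negative. Hspa5 had a difference of -3.04 and Xbp1 of -2.01. Glycolysis genes were higher in 19 of 21 in AXL KO and 20 of 21 in AXL WT cells, with medians of 1.34 and 2.31, with 16 of 21 differences called and all negative: AXL KO cells began higher, at 8.29 to 8.55 in median log2(CPM + 1) against 6.92 to 7.08, and ended at 9.88 to 9.92 against 9.63 to 10.03. Cytokines and chemokines fell in AXL KO cells (median -1.99 in this fit) and had a median of 0.73 in AXL WT cells, with 12 of 22 differences called, but the AXL WT hypoxia libraries ranged from 1.66 to 3.10 in list level. In this fit, lists in which few differences were called, at or below the background share, include the circadian clock (4 of 16), glycogen (3 of 11), oxygen sensing (2 of 10), the nuclear respiratory chain (5 of 33) and epithelial genes (4 of 21). Without AXL WT hypoxia replicate 1, 8413 of 17493 genes were called. Positive and negative differences then numbered 8 and 4 of 17 for the clock and 8 and 5 of 21 for epithelial genes. They numbered 1 and 4 of 11 for glycogen, 0 and 2 of 10 for oxygen sensing and 3 and 7 of 33 for the respiratory chain. The median difference of the clock list was 0.46 there and -0.47 without AXL WT hypoxia replicates 2 and 3. A miss of the threshold does not show that the genotypes responded alike.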

How the data were processed

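Total RNA of 12 samples was sequenced, and the deposited files hold raw counts of fragments per gene, per the file headers made with featureCounts 1.6.0 on Ensembl release 93 (GRCm38), with properly placed pairs only and strand setting 2. The submitters' processing notes name featureCounts 1.4.6, STAR 2.5.1b, FastQC 0.11.5 and DESeq2 1.12.3. Groups came from the sample titles. Gene totals per library are in the report, and their size limits counting error only.

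Here edgeR 4.0.16 (R 4.3.3) was run: filterByExpr, TMM factors from all 12 libraries, and glmQLFit (robust) with glmQLFTest on the 6 AXL KO libraries (15134 genes) and, for the difference of the responses, on all 12 (16767 genes). Calls are at p under 0.05 after Benjamini-Hochberg adjustment, and glmTreat gave calls past a minimum fold of 2. SE is the absolute log2 change divided by the square root of F. The tests were checked on simulated data with the same spread in every group and few genes changed. That check does not cover the wider spread of AXL WT hypoxia or a response of most genes. Alternatives were RLE factors, library size alone, no filter or a stricter one (5 CPM in 3 libraries), DESeq2 1.42.0, limma 3.58.1 (voom), a replicate block, leaving out libraries, and, chosen after seeing the data, TMM factors from the 6 libraries.

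Named genes were Axl, the 10 largest rises and 10 largest falls among called protein-coding genes with at least 10 CPM and no overlap between groups, the 6 largest gains and 6 largest losses in CPM, the 8 largest differences between genotypes in each direction, and members of 44 gene lists (811 distinct genes) given beside the count of the whole list. Members and lists were chosen with earlier results of these data known. Genes under other observations were picked outside these rules, after their values had been seen. Promoter sequences came from RefSeq (GRCm38.p6), in which 10480 of 15126 tested symbols matched. Some genes that these rules select are not reported here.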

Additional observations from a re-analysis of the deposited data

Results flagged for a closer look

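The hypoxia response differed between AXL KO and AXL WT cells, by edgeR's test of the difference itself, for the genes given here. Each value is the log2 response of AXL KO minus that of AXL WT cells, in the fit to all 12 libraries. The differences with the largest positive values were in Cyp2s1 (7.19, adjusted p = 0.00086), Fam19a5 (6.30, adjusted p = 1.6e-06), Tspan15 (4.71, adjusted p = 7.6e-05), L1cam (4.55, adjusted p = 1.5e-05), Nid1 (4.44, adjusted p = 0.0013), Oas3 (4.38, adjusted p = 0.0043), Bend4 (4.35, adjusted p = 0.04, but 0.0537 to 0.221 without any 1 library other than AXL WT normoxia replicate 2, 0.25 without AXL WT hypoxia replicates 2 and 3, 0.0728 with no filter, 0.0562 with DESeq2 and 0.0625 with the replicate block) and Espn (3.99, adjusted p = 3.2e-06). Fam19a5 stood at 14.9, 16.4 and 15.2 CPM in AXL WT normoxia and 0.331, 0.187 and 0.353 CPM in AXL WT hypoxia, against 13.1, 18.9 and 21.5 CPM and 26, 28.6 and 25.4 CPM in AXL KO cells. Espn rose in both genotypes, by 2.85 in AXL WT and 6.84 in AXL KO cells, and L1cam by 1.95 and 6.50.

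The largest negative differences were in Gper1 (-10.48, adjusted p = 8.1e-06), Ogn (-8.64, adjusted p = 0.0031), Trp63 (-8.60, adjusted p = 0.0013), D630039A03Rik (-8.33, adjusted p = 0.011), Cxcl5 (-7.65, adjusted p = 3.4e-07), Gm5860 (-7.37, adjusted p = 0.0056), Matn4 (-7.32, adjusted p = 4.8e-06) and Gmpr (-7.20, adjusted p = 0.0013). Cxcl5, a neutrophil attractant, stood at 20.2, 17.5 and 25.5 CPM in AXL WT normoxia and 85.8, 84.2 and 120 CPM in AXL WT hypoxia, and fell in AXL KO cells. Gper1, a membrane oestrogen receptor, stood at 0.391 to 0.617 CPM in AXL WT normoxia and at 66, 410 and 173 CPM in AXL WT hypoxia, against 12.1 to 17.1 CPM and 4.36 to 5.09 CPM in AXL KO cells. Among genes of the lists, the differences were 3.28 for Top2a, 3.00 for Ccnb1, -3.04 for Hspa5 and -2.01 for Xbp1.

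Several of these folds rest on AXL WT groups with few counts, where a fitted fold depends on the prior count and is no bound. Over 3 libraries, AXL WT normoxia and hypoxia held 6 and 6 counts of Cyp2s1, 4 and 6 of Trp63, 0 and 2 of Gm5860, 3 and 0 of Bend4, 11 and 1 of Nid1 and 77 and 2 of Tspan15. Without AXL WT normoxia replicate 2 the difference was 5.42 for Cyp2s1 and -12.01 for Trp63. Without AXL WT hypoxia replicates 2 and 3 it was -2.83 for Ogn, -3.78 for D630039A03Rik, -4.57 for Gm5860, -4.61 for Gmpr, 6.46 for Nid1, 3.39 for Oas3, 3.93 for L1cam and -8.77 for Gper1, whereas Fam19a5, Espn and Cxcl5 moved by less than 1.5 times in fold under that setting. Without AXL WT hypoxia replicate 1 alone, the difference was 5.35 for Oas3.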

How the results depend on the processing

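With edgeR's minimum fold of 2 the calls dropped to 3781 in the AXL KO response (1656 higher, 2125 lower) and to 933 in the difference of the responses (415 positive, 518 negative). All other settings kept the calls of the AXL KO response within 1.5 times, at 8521 to 13130, and leaving out 1 library gave 11241 to 11747 (5347 to 5709 higher, 5889 to 6065 lower). The difference ranged from 3587 to 8413 without 1 library (1673 to 4201 positive, 1899 to 4212 negative), the highest without AXL WT hypoxia replicate 1, and was 6654 without AXL WT hypoxia replicates 2 and 3. Same-numbered AXL KO libraries had correlations of 0.229, 0.203 and -0.0609, and the other pairs -0.259 to 0.152. Whether replicate numbers pair the libraries is therefore not settled. With the replicate block 11961 and 4520 genes were called, and mitosis genes in AXL KO cells were 10 higher and 6 lower. Directions that turned were of genes near 0: with RLE factors P3h1 (0.01) and Snai2 (0.00), the same with DESeq2 (0.01 and 0.00), and with library size alone Arntl (-0.07), Ccnb1 (-0.12), Col5a1 (-0.08), Egln2 (-0.07), Fn1 (-0.06), Krt18 (-0.18), Mcm6 (-0.13), Mertk (-0.09), Snai1 (-0.04) and mt-Co1 (-0.16). Without 1 library Krt18 ranged from -0.02 to 0.05, Mcm6 from -0.08 to 0.29, Ccnb1 from -0.10 to 0.28, Snai2 from -0.08 to 0.08, Cd14 from -0.07 to 0.01 and P3h1 from -0.04 to 0.00. Among genes named in the difference, Bend4 was lost in most settings and Cyp2s1, Ogn, D630039A03Rik and Gm5860 in some. The cause was not tested. With 3 libraries a group, spread between libraries rather than depth limits precision, except for genes with few counts.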

Other observations

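Genes of iron handling and of the acute phase were read after their values had been seen, so their counts carry no test. Of 22 iron-handling genes, 15 were lower in AXL KO hypoxia and 4 higher, 12 of the 15 past a minimum fold of 2. Over all genes 40.3% were lower, 37.6% higher and 14.0% lower past that fold. Beside Fth1, Lcn2, Cp and Steap4, the importers Slc11a2 (142, 147 and 136 CPM to 50.5, 49.1 and 49.4 CPM, -1.51 ± 0.06) and Slc39a14 (-1.40 ± 0.08), the iron regulatory protein Aco1 (-1.17 ± 0.07) and the reductases Steap1 (-2.09 ± 0.21) and Steap2 (-1.22 ± 0.08) fell. The ferritin light chain Ftl1 rose (708, 796 and 800 CPM to 1048, 1027 and 1054 CPM, 0.44 ± 0.07) while its partner Fth1 fell, and the transferrin receptor Tfrc, a HIF target in other cells, was not called (-0.31 ± 0.16, edgeR adjusted p = 0.11).

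Of 11 acute-phase genes tested, 10 were lower and 1 higher, against 40.3% lower and 37.6% higher over all genes. Lbp, which binds bacterial lipopolysaccharide, fell from 2587, 2449 and 2775 CPM to 733, 712 and 727 CPM (-1.85 ± 0.07), and Hp, haptoglobin, by 5.87 ± 0.20 on the log2 scale from 6.23 to 6.59 CPM. Serpina3n was the exception (0.91 ± 0.18). The inhibitors of NF-kappa B Nfkbia (67.9, 97.8 and 82.7 CPM to 837, 647 and 762 CPM, 3.18 ± 0.14) and Tnfaip3 (1.41 ± 0.09) rose, as did the metal-binding Mt1 (434, 514 and 688 CPM to 2263, 2270 and 2069 CPM, 2.01 ± 0.14) and Mt2 (20.1, 20.4 and 24.6 CPM to 65.6, 67.7 and 64.7 CPM). Nfkbia, Tnfaip3, Mt1 and Mt2 were picked with their values known and have no count of a whole list beside them. They do not describe their families, and a link to the acute-phase falls was not tested.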
